A study of Mus musculus with 7 samples.

Results

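Theca androgen and hedgehog genes of the mouse ovary were followed across wild type mice and mice with a knockout of Abcg5 and Abcg8, whose products export sterols from cells, on either of 2 diets. The 10 genes were taken by symbol from the 34866 rows of the deposited table, and all 10 passed the filter that left 15487 genes for testing. They were the androgen enzyme gene Cyp17a1 and the hormone gene Insl3, the hedgehog targets Hhip, Ptch1 and Gli1, and the theca and interstitial markers Aldh1a1, Nr2f2, Enpep, Tcf21 and Pdgfra. RNA came from ovaries of mice aged 8 to 12 weeks. Wild type mice on CD diet formed 1 group (WT CD, fertile, 2 libraries). Abcg5/g8 KO mice were on CD diet (KO CD, infertile, 3 libraries) or on VOFD diet (KO VOFD, fertile, 2 libraries). The labels name both diets by these letters and do not state that each library came from a separate animal, so p-values measure the spread between libraries, which may be technical. The labels used here name no strain and do not say how much of each gene was deleted.

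Theca cells surround the growing follicle and turn cholesterol into androgen, which granulosa cells inside the follicle convert to oestrogen. Granulosa cells secrete the hedgehog ligands encoded by Ihh and Dhh, and the surrounding mesenchyme answers through the receptor PTCH1, the signal transducer SMO and the GLI transcription factors. Ptch1, Gli1 and Hhip are themselves switched on by this signal, and their RNA is used as its readout. Luteinising hormone, acting through the receptor encoded by Lhcgr, controls Cyp17a1 in theca cells.

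Values were TPM, a gene's transcripts in each 1000000 after correction for length, so levels of different genes can be set side by side within a library. TPM keeps no sequencing depth. From 14267 to 14982 genes had at least 1 TPM, depending on the library. Abcg5 lay between 0.0268 and 0.212 TPM and Abcg8 between 0 and 0.156 TPM over the 7 libraries, too low to check the genotype labels. KO CD libraries 1 and 3 stood apart. Of all genes tested, 48.4% had their highest value in KO CD library 3 and 38.3% their lowest in WT CD library 1, so a gene that is highest in the one and lowest in the other follows a common pattern in these libraries. With median-of-ratios scaling, the log2 shift was -0.29 for KO CD library 3 and 0.24 for WT CD library 1, and the median log2 fold change of all genes in KO CD against WT CD went from 0.19 to -0.0036.

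The upstream sequences of Insl3 and Hhip are shown because these genes had the greatest spread of their groups after Cyp17a1. Both were read from RefSeq windows on GRCm38.p6, which were found for 8 of the 10 genes. Capitals mark matches to the core letters bound by NR5A1, the factor that switches on steroidogenic genes (CAAGGNC), in Insl3, and to the core letters bound by GLI factors (CCACCC) in Hhip, each searched on both strands of the 250 bases before the start. The Insl3 stretch is chr8:71689002-71689213 on the plus strand, before the annotated start of Insl3 and within the span of Jak3, whose exons were not checked. It holds 212 bases, because those between the annotated start and the RefSeq start were left out. The Hhip stretch is chr8:80058009-80058258 on the minus strand.
Insl3: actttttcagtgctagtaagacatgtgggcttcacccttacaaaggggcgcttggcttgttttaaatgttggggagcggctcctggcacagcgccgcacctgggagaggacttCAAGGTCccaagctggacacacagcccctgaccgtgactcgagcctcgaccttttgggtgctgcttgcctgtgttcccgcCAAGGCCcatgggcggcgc
Hhip: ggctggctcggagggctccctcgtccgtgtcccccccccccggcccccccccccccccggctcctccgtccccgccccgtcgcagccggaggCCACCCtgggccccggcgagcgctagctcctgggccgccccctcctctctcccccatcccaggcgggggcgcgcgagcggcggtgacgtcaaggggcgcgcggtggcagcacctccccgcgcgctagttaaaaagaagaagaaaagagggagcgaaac
The Insl3 matches begin 137 and 57 bases before the RefSeq start, and the Hhip match begins 158 bases before it. The NR5A1 letters were found in 15% of 32851 RefSeq windows and, among the 8 genes, in Insl3 and Aldh1a1. The GLI core letters were found in 28.1% of windows and, among the 8 genes, in Hhip, Enpep and Pdgfra, and the longer GLI consensus GACCACCCA in 0.225% of windows and in none of the 8. A match describes letters and not a bound site.

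Across all libraries 0 of the 10 genes passed the threshold (limma, Benjamini-Hochberg adjusted p under 0.05 over 15487 genes) in each of 4 comparisons: KO CD against WT CD, KO VOFD against KO CD, KO VOFD against WT CD, and the infertile KO CD libraries against the 4 fertile ones together. In KO CD against WT CD 0.11% of all genes passed, and 1 of the 10 genes had an unadjusted p under 0.05, as did 10.3% of all genes. Of the 10, 8 had a positive log2 fold change, with a median of 0.46 beside 0.19 over all genes, of which 72.3% were positive. Groups did not overlap for 1 of the 10, upward, beside 20.6% of all genes upward and 5.95% downward.

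In KO VOFD against KO CD 0.0452% of all genes passed, 1 of the 10 had an unadjusted p under 0.05 beside 7.94% of all genes, and the median was -0.16 beside -0.10. Of the 10, 3 were positive beside 36.7% of all genes, and 1 did not overlap, downward, beside 17.9% downward and 8.68% upward. In KO VOFD against WT CD 0.0129% of all genes passed, 1 of the 10 had an unadjusted p under 0.05 beside 1.99% of all genes, and the median was 0.15 beside 0.08. Here 8 of the 10 were positive beside 65.3% of all genes, Aldh1a1, Enpep, Gli1 and Insl3 lay higher without overlap beside 24.6% of all genes, and Hhip lower beside 9.88%. In infertile against fertile libraries 0.245% of all genes passed, 1 of the 10 had an unadjusted p under 0.05 beside 15.4% of all genes, 8 were positive beside 69.2%, and 1 did not overlap, upward, beside 11.2% upward and 3.76% downward. These comparisons share libraries. Leaving out KO CD library 1 gave 0 calls among the 10 in the 3 pairwise comparisons, where 1.14%, 0.678% and 0.0391% of all genes then passed, with 4, 4 and 2 of the 10 at an unadjusted p under 0.05 beside 21%, 15.4% and 3.14% of all genes. In infertile against fertile libraries, 4 of the 10 then had such a p beside 25.6% of all genes.

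**Figure D1:**
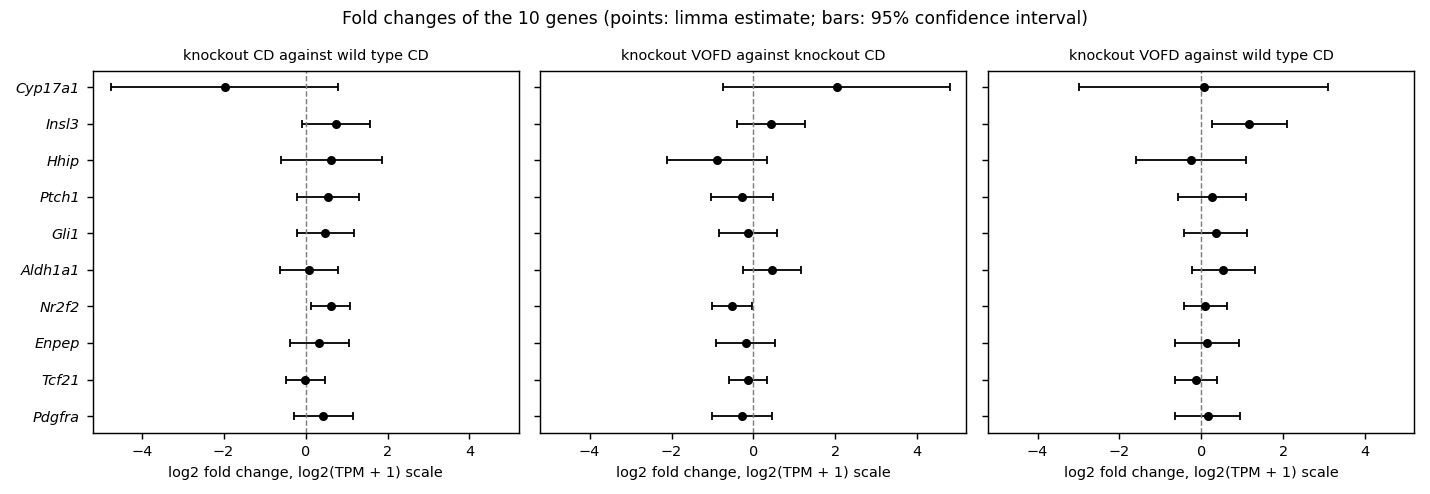
Log2 fold changes of the 10 genes on the log2(TPM + 1) scale in 3 comparisons; points are limma estimates and bars 95% confidence intervals. The interval of Cyp17a1 is the widest in each panel, from -4.75 to 0.80 in KO CD against WT CD.

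Most of the 10 genes, like most genes tested, differed more between the KO CD libraries than between the fertile ones. On the log2(TPM + 1) scale the range over the 3 KO CD libraries exceeded the range over the 4 fertile libraries for 9 of 10 genes, all but Insl3, and for 67.8% of all genes tested. In whole ovary RNA, fewer cells of a type and less RNA per cell cannot be told apart.

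**Figure D2:**
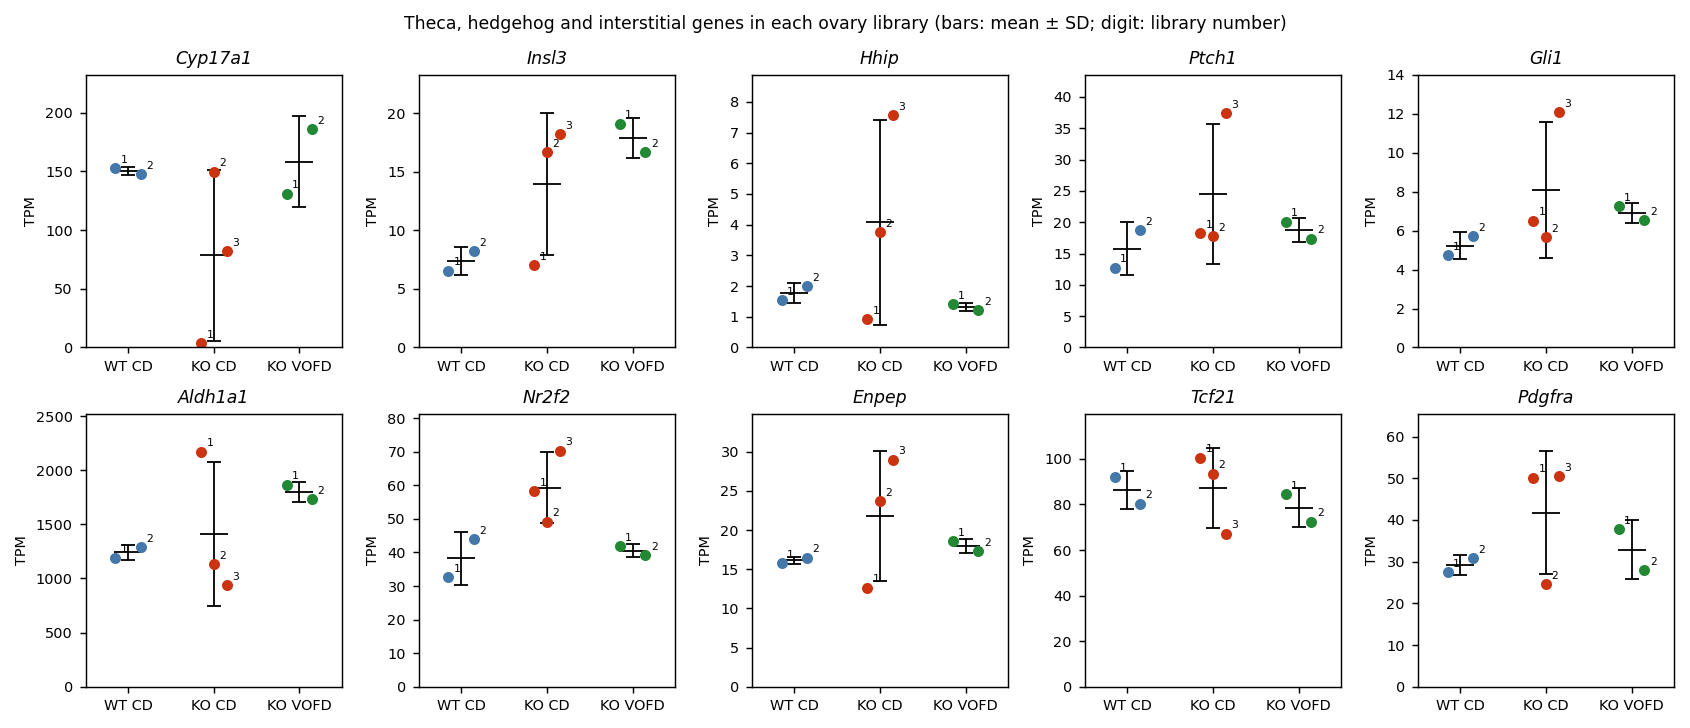
TPM of the 10 genes in each of the 7 libraries, by group; dots are libraries with their number, and bars are the mean ± SD (n = 2, 3 and 2). Cyp17a1 in KO CD library 1 lies at 3.53 TPM, and the Nr2f2 values of the 3 KO CD libraries lie above those of the 4 others.

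Cyp17a1 encodes the 17-alpha-hydroxylase and 17,20-lyase that makes androgen (ENSMUSG00000003555.7, GRCm38 chromosome 19, 46667165 to 46673172). It was at 152 and 148 TPM in WT CD, at 131 and 186 TPM in KO VOFD, and at 3.53, 149.5 and 81.9 TPM in KO CD libraries 1, 2 and 3. KO CD library 1 was therefore 23.2-fold below the lowest other library, while KO CD library 2 lay within the range of the fertile libraries. The group means were 150.1 ± 3.27 TPM (SD, n = 2) in WT CD, 78.3 ± 73.1 TPM (n = 3) in KO CD and 158.3 ± 38.6 TPM (n = 2) in KO VOFD. In KO CD against WT CD the log2 fold change was -1.98 (SE 1.21, 95% interval -4.75 to 0.80, adjusted p = 0.547), and without KO CD library 1 it was -0.44 (SE 0.29, adjusted p = 0.383). That of KO VOFD against KO CD was 2.03 (SE 1.21, adjusted p = 0.687), and 0.49 (SE 0.29, adjusted p = 0.435) without that library.

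The gap of Cyp17a1 below the other libraries was the widest of any gene in KO CD library 1. Among 11285 genes whose mean over the other libraries was 5 TPM or more, Cyp17a1 was the only one to lie 4 or more log2 units below all of them, by 4.19 on the log2(TPM + 1) scale. By the same measure KO CD library 3 had 4 such genes, and every other library 0. In KO CD library 1 the next was Grem1, the gene of a secreted BMP antagonist, at 0.406 TPM against 6.20 to 28.5 TPM in the others (2.36). In the opposite direction Akr1b7, an aldo-keto reductase gene known from the adrenal cortex and the vas deferens, was at 124 TPM against 0.644 to 3.02 TPM. Adamts1, the gene of a protease of ovulation, was at 79.3 TPM against 7.55 to 12.4 TPM. These 3 genes, and the ovulation and oocyte genes that follow, were chosen after their values were seen.

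Other genes of ovulation and of the adrenal cortex did not all follow. Pgr, the progesterone receptor gene, was at 0.498 TPM in KO CD library 1, the lowest of the 7, with 1.63 TPM the highest, and Ptgs2, the inducible prostaglandin synthase gene, at 0.319 TPM, within 0.108 to 1.03 TPM. Runx1, a transcription factor gene induced before ovulation, was at 24.8 TPM against 8.61 to 17.0 TPM. Of 5 adrenal cortex markers, 3 were highest in this library, as were 14.3% of all genes tested. Their summed level was 163 TPM there, 18.3 and 23.2 TPM in the other KO CD libraries and 47.3 to 67.5 TPM in the fertile ones. Nearly all of it was Mrap, the gene of an accessory protein of the ACTH receptor, at 160 TPM. The defining steroid hydroxylase genes Cyp21a1 and Cyp11b2 were at 0.0546 and 0.0367 TPM, and Cyp11b1 was at 2.63 TPM against 0 to 0.334 TPM in the others. The oocyte genes Gdf9 and Zp3 were at 50.5 and 48.2 TPM in KO CD library 1 against 85.7 to 152 TPM and 84.0 to 133 TPM in the others. The part of any of these in the Cyp17a1 value was not tested.

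**Figure D3:**
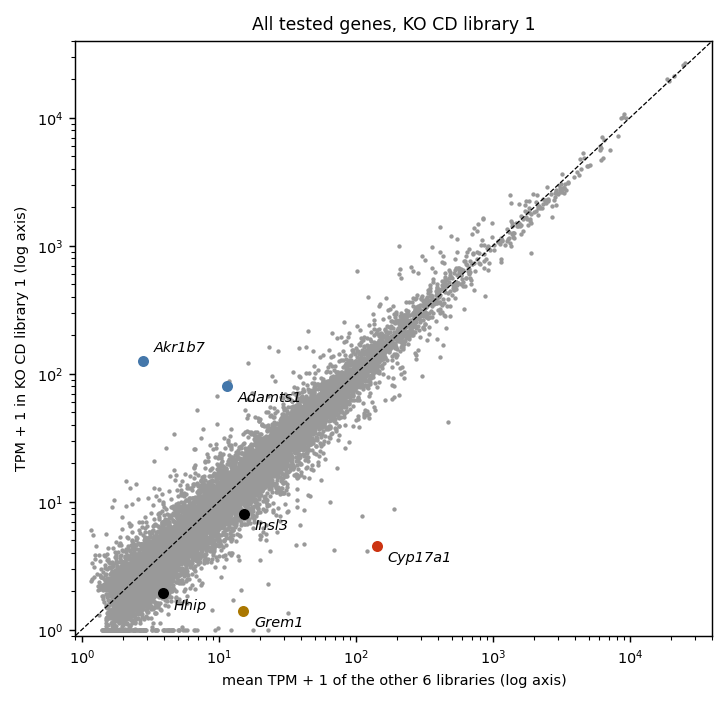
All 15487 tested genes, with the mean TPM + 1 of the other 6 libraries on the horizontal axis and TPM + 1 in KO CD library 1 on the vertical axis, both on log axes; the dashed line marks equal values. Cyp17a1, at 3.53 TPM, lies far below the line, and Akr1b7, at 124 TPM, far above it.

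Insl3, the gene of the insulin-like peptide hormone secreted by theca cells, followed another order (ENSMUSG00000079019.2, chromosome 8, 71689214 to 71690575). It was at 6.57 and 8.23 TPM in WT CD, at 7.01, 16.7 and 18.2 TPM in KO CD and at 19.1 and 16.7 TPM in KO VOFD. KO CD library 1 thus lay between the WT CD libraries, and KO CD libraries 2 and 3 near the KO VOFD ones. The means were 7.40 ± 1.17 TPM in WT CD, 14.0 ± 6.08 TPM in KO CD and 17.9 ± 1.73 TPM in KO VOFD. Of the 10 genes, Insl3 was the 1 with an unadjusted p under 0.05 in KO VOFD against WT CD, at a log2 fold change of 1.17 (SE 0.40, 95% interval 0.26 to 2.09, adjusted p = 1.00). In KO CD against WT CD it was 0.74 (SE 0.36, adjusted p = 0.513), and 1.14 without KO CD library 1 (SE 0.21, adjusted p = 0.0520). The annotated span of Jak3 covers Insl3 on the same strand. Jak3, a cytokine receptor kinase gene, stayed between 2.26 and 4.01 TPM, and its highest values were in KO CD libraries 3 and 1.

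The ratio of Cyp17a1 to Insl3 therefore varied within each genotype. It was 23.2 and 18.0 in WT CD, 6.85 and 11.1 in KO VOFD, 8.98 and 4.49 in KO CD libraries 2 and 3, and 0.504 in KO CD library 1. Both WT CD ratios were above all 5 knockout ones. Rxfp2, the INSL3 receptor gene, lay between 0.0223 and 0.392 TPM and was not tested, like Rxfp1 and Rln1 of the same family.

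Of genes upstream of Cyp17a1 in the steroid pathway, Star, Cyp11a1 and Hsd3b1 were not low in KO CD library 1. The receptor gene Lhcgr was lower there, at 55.4 TPM against 81.9 to 171 TPM in the fertile libraries. Star, whose product carries cholesterol into mitochondria, was at 223 and 378 TPM in WT CD, at 603, 93.7 and 61.9 TPM in KO CD and at 265 and 220.0 TPM in KO VOFD. Cyp11a1, the gene of the side chain cleavage enzyme, was at 1357 and 2365 TPM in WT CD, at 2481, 250.3 and 602 TPM in KO CD and at 1993 and 1494 TPM in KO VOFD. Both genes were thus highest in KO CD library 1 and below every fertile library in KO CD libraries 2 and 3. There were 703 Cyp11a1 transcripts for each Cyp17a1 transcript in KO CD library 1, 1.67 and 7.35 in the other KO CD libraries, and 8.05 to 16.0 in the fertile ones. Hsd3b1, the gene of the 3-beta-hydroxysteroid dehydrogenase, was at 5326, 4259 and 3856 TPM in KO CD and at 4196 to 5183 TPM in the fertile libraries.

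Downstream genes went in other directions. Srd5a1, which encodes the 5-alpha reductase that acts on testosterone and progesterone, was at 45.8, 48.7 and 45.8 TPM in KO CD, 17.0 and 17.7 TPM in WT CD and 27.1 and 19.7 TPM in KO VOFD. The KO CD values lay above all others and close to each other, KO CD library 1 included. In infertile against fertile libraries, a comparison in which 0.245% of all genes passed, Srd5a1 was higher by a log2 fold change of 1.18 (SE 0.17, adjusted p = 0.0328). Adjusted p ran from 0.0169 to 0.140 over 12 alternative fits, and the call did not hold in 8 of them. Cyp19a1, the aromatase gene of granulosa cells, was at 7.39, 18.8 and 25.5 TPM in KO CD and at 8.95 to 25.4 TPM in the fertile libraries. Its lowest value was again in KO CD library 1.

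Of the 18 other steroidogenic genes listed, 17 were tested, and 0 passed in KO CD against WT CD or in KO VOFD against KO CD by limma, with 6 and 5 at an unadjusted p under 0.05 beside 10.3% and 7.94% of all genes. Their median log2 fold change was -0.18 beside 0.19 over all genes in the former and 0.07 beside -0.10 in the latter, where it was 0.20 beside -0.14 without KO CD library 1. Those with the smallest p in KO CD against WT CD were Srd5a1 (log2 fold change 1.38, adjusted p = 0.0503), Hsd17b7, which acts in cholesterol and oestrogen synthesis (-2.85, adjusted p = 0.212), and Lhcgr (-1.91, adjusted p = 0.242). Lhcgr was at 55.4, 33.3 and 20.3 TPM in KO CD, 97.4 and 171 TPM in WT CD and 162 and 81.9 TPM in KO VOFD, so each KO CD library was below each fertile one. Without KO CD library 1, Star (log2 fold change -1.92, adjusted p = 0.0295), Lhcgr (-2.27, adjusted p = 0.0449) and the mitochondrial ferredoxin gene Fdx1 (-1.27, adjusted p = 0.0212) fell and Srd5a1 rose (1.40, adjusted p = 0.0263), in a fit that called 1.14% of all genes. In infertile against fertile libraries without it, 3 of the 17 passed upward and 5 downward, beside 4.34% of all genes. Star, Cyp11a1 and Lhcgr are also expressed by luteal cells, and the summed level of 7 luteal markers, Lhcgr among them, was 87.0 to 244 TPM in KO CD and 985 to 1868 TPM in the fertile libraries. Ptgfr, Akr1c18, Sfrp4 and Lhcgr were lower in each KO CD library than in each fertile one. Prlr, Parm1 and Cited4 overlapped between infertile and fertile libraries, and Parm1 in KO CD lay above both WT CD libraries. The part of luteal tissue in these values was not tested.

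**Figure D4:**
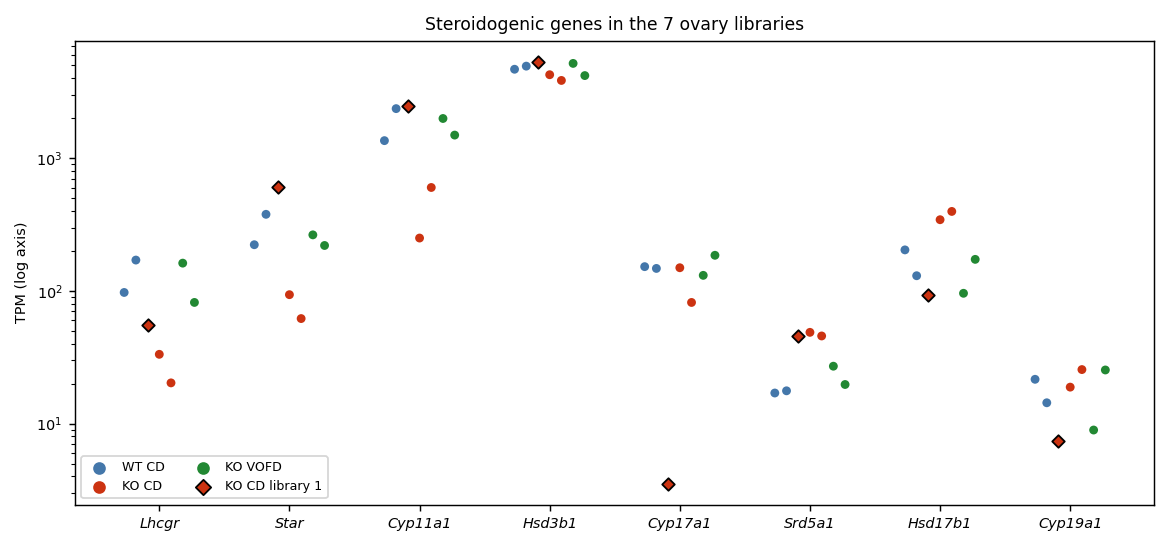
TPM of 8 steroidogenic genes in each library on a log axis; each dot is a library, coloured by group, with KO CD library 1 as a diamond. In that library Star (603 TPM) and Cyp11a1 (2481 TPM) are highest and Cyp17a1 (3.53 TPM) is lowest.

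Hhip, which encodes a membrane protein that binds and restrains hedgehog ligands, was the hedgehog target with the widest range (ENSMUSG00000064325.4, chromosome 8, 79965851 to 80058006). It was at 1.54 and 2.00 TPM in WT CD, at 0.923, 3.75 and 7.56 TPM in KO CD and at 1.41 and 1.22 TPM in KO VOFD. KO CD libraries 2 and 3 lay above all fertile libraries and KO CD library 1 below them. The means were 1.77 ± 0.330 TPM in WT CD, 4.08 ± 3.33 TPM in KO CD and 1.31 ± 0.135 TPM in KO VOFD. The log2 fold change was 0.63 in KO CD against WT CD (SE 0.54, adjusted p = 0.622) and -0.89 in KO VOFD against KO CD (SE 0.54, adjusted p = 0.687). Without KO CD library 1 these were 1.21 (SE 0.33, adjusted p = 0.125) and -1.47 (SE 0.33, adjusted p = 0.104). In infertile against fertile libraries the log2 fold change was 0.76 (SE 0.43, adjusted p = 0.405), and without KO CD library 1 Hhip passed at 1.34 (SE 0.28, adjusted p = 0.0358), where 4.34% of all genes passed. Depending on the library left out, the value of Hhip ran from 0.13 to 1.21 in KO CD against WT CD. In infertile against fertile libraries it ran from 0.26 to 1.34.

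Ptch1, the hedgehog receptor gene (ENSMUSG00000021466.12, chromosome 13, 63508328 to 63573598), was at 12.8 and 18.8 TPM in WT CD, at 18.2, 17.8 and 37.4 TPM in KO CD and at 20.1 and 17.4 TPM in KO VOFD. Gli1, the gene of a transcriptional activator of the pathway, whose end overlaps that of Arhgap9 on the other strand (ENSMUSG00000025407.7, chromosome 10, 127329882 to 127341974), was at 4.73 and 5.73 TPM in WT CD, at 6.51, 5.67 and 12.1 TPM in KO CD and at 7.27 and 6.53 TPM in KO VOFD. Both were highest in KO CD library 3 and lowest in WT CD library 1, and the other 5 libraries lay between 17.4 and 20.1 TPM for Ptch1 and between 5.67 and 7.27 TPM for Gli1. With median-of-ratios scaling KO CD library 3 was still highest, at 30.6 scaled TPM for Ptch1 beside 15.1 to 20.0 in the others and at 9.86 for Gli1 beside 5.55 to 7.23. The log2 fold change of KO CD against WT CD was 0.54 for Ptch1 (SE 0.33, adjusted p = 0.547) and 0.48 for Gli1 (SE 0.31, adjusted p = 0.549). For KO VOFD against KO CD the values were -0.29 (SE 0.33, adjusted p = 0.818) and -0.14 (SE 0.31, adjusted p = 0.912). In KO CD library 3 the oviduct marker gene Ovgp1 stood at 352 TPM, against 3.23 to 37.4 TPM in the others. The 4 oviduct markers, 3 of them highest there beside 48.4% of all genes, summed to 406 TPM there and to 20.1 to 68.9 TPM elsewhere. The sum in KO CD library 3 was mostly Ovgp1. Tppp3 was at 45.9 TPM there against 16.5 to 24.2 TPM in the others. Foxj1 was at 7.16 TPM there and at 7.02 TPM in KO VOFD library 2. Dnah5 was at 0.598 TPM there and highest in KO VOFD library 2, at 1.71 TPM. The part of oviduct tissue in the Ptch1 and Gli1 values was not tested.

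The hedgehog targets kept different proportions to each other. Gli1 held between 0.305 and 0.376 transcripts per Ptch1 transcript in all 7 libraries. Hhip per Ptch1 was 0.211 and 0.202 in KO CD libraries 2 and 3, 0.0506 in KO CD library 1, 0.120 and 0.107 in WT CD and 0.0700 in both KO VOFD libraries.

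The ligand genes followed the order of Hhip in the KO CD group. Ihh was at 18.2 and 28.1 TPM in WT CD, at 7.50, 55.9 and 57.3 TPM in KO CD and at 12.7 and 12.1 TPM in KO VOFD. Dhh was at 7.22 and 7.78 TPM in WT CD, at 6.04, 18.0 and 19.0 TPM in KO CD and at 5.77 and 6.73 TPM in KO VOFD. KO CD libraries 2 and 3 were above every fertile library for both genes, and KO CD library 1 was the lowest of all for Ihh. Neither passed with all libraries. In KO CD against WT CD the log2 fold change of Ihh was 0.37 (adjusted p = 0.836) and that of Dhh 0.71 (adjusted p = 0.542), and in KO VOFD against KO CD they were -1.18 (adjusted p = 0.692) and -0.94 (adjusted p = 0.623). Without KO CD library 1 both passed, Ihh at 1.29 (adjusted p = 0.0473) and Dhh at 1.20 (adjusted p = 0.0437) in KO CD against WT CD, and Ihh at -2.10 (adjusted p = 0.0107) and Dhh at -1.43 (adjusted p = 0.0295) in KO VOFD against KO CD, where 0.678% of all genes passed. Depending on the library left out, KO CD against WT CD ran from -0.10 to 1.29 for Ihh and from 0.44 to 1.20 for Dhh. The values of KO VOFD against KO CD ran from -2.10 to -0.71 for Ihh and from -1.43 to -0.68 for Dhh. Both ligands come from granulosa cells, and the summed level of 10 granulosa markers was 1803, 5408 and 6056 TPM in KO CD and 2491 to 3317 TPM in the fertile libraries, with KO CD library 1 lowest here too. The largest part of each sum was Inha, at 879, 3046 and 3410 TPM in KO CD. In KO CD library 1, Inha, Gja1, Fshr, Inhba, Cyp19a1 and Hsd17b1 lay below all fertile libraries. Nr5a2, Foxl2 and Amh lay within the fertile range there, and Amhr2, at 109.8 TPM, lay above its 100.5 to 108.3 TPM. In KO CD library 2, Inha, Gja1, Hsd17b1, Foxl2, Nr5a2 and Amhr2 lay above all fertile libraries. Fshr, Cyp19a1, Amh and Inhba lay within the fertile range there, and Inhba in KO CD library 3, at 193 TPM, lay below it. Of these markers 9 were highest in KO CD library 3, beside 48.4% of all genes. The part of granulosa cell content in the ligand values was not tested. The remaining ligand gene, Shh, was at most 0.0941 TPM.

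The transducer gene Smo was between 50.9 and 60.4 TPM in all 7 libraries. Gli2, the main activator of the response, was between 2.26 and 5.06 TPM and Gli3, mostly a repressor, between 1.44 and 2.61 TPM. Of the 20 other hedgehog genes listed, 19 were tested and 0 passed with all libraries in KO CD against WT CD, KO VOFD against KO CD or KO VOFD against WT CD by limma, each with 1 at an unadjusted p under 0.05 beside 10.3%, 7.94% and 1.99% of all genes. Their median log2 fold change in KO CD against WT CD was 0.29 beside 0.19 over all genes, and 16 of 19 were positive beside 72.3% of all genes. The smallest p there belonged to Boc, a hedgehog co-receptor gene, at 14.5 ± 3.08 TPM in KO CD against 9.64 ± 1.12 TPM in WT CD (adjusted p = 0.479). In KO CD 4 of the 19 lay above both WT CD libraries, beside 20.6% of all genes.

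**Figure D5:**
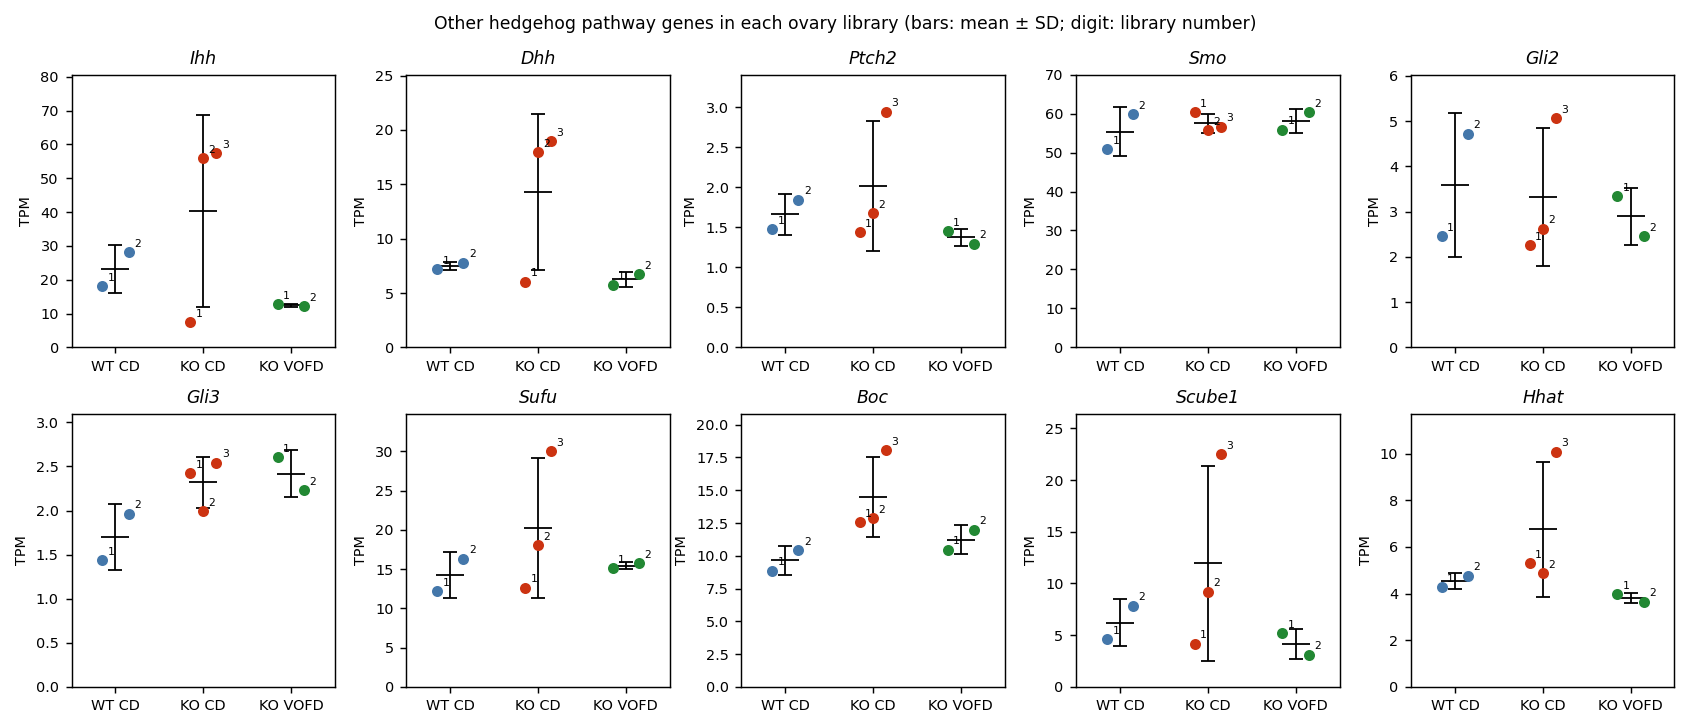
TPM of 10 further hedgehog pathway genes in each library, by group; dots are libraries with their number, and bars are the mean ± SD (n = 2, 3 and 2). Ihh and Dhh in KO CD libraries 2 and 3 (55.9 and 57.3 TPM, 18.0 and 19.0 TPM) lie above the other 5 libraries, while Smo stays between 50.9 and 60.4 TPM.

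Nr2f2, which encodes the nuclear receptor COUP-TFII of interstitial and theca cells (ENSMUSG00000030551.14, chromosome 7, 70351944 to 70366735), was the only one of the 10 genes whose KO CD libraries lay apart from all fertile ones. It was at 58.2, 49.2 and 70.2 TPM in KO CD, 32.6 and 43.9 TPM in WT CD and 41.8 and 39.1 TPM in KO VOFD. Such a separation upward was seen in 11.2% of all genes in infertile against fertile libraries. The means were 59.2 ± 10.6 TPM in KO CD, 38.3 ± 7.93 TPM in WT CD and 40.5 ± 1.91 TPM in KO VOFD. The log2 fold change was 0.62 in KO CD against WT CD (SE 0.21, 95% interval 0.14 to 1.10, adjusted p = 0.403), -0.52 in KO VOFD against KO CD (SE 0.21, adjusted p = 0.602) and 0.57 in infertile against fertile (SE 0.16, adjusted p = 0.192). It was the gene behind the single unadjusted p under 0.05 in each of these 3 comparisons. The fertile groups overlapped.

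Enpep, the gene of an aminopeptidase that cleaves angiotensin II (ENSMUSG00000028024.14, chromosome 3, 129269175 to 129332720), kept the order of Hhip in the KO CD group. It was at 12.7, 23.7 and 29.0 TPM in KO CD, 15.8 and 16.5 TPM in WT CD and 18.6 and 17.3 TPM in KO VOFD. KO CD libraries 2 and 3 were above all fertile libraries and KO CD library 1 below them. Against WT CD the log2 fold change of KO CD was 0.34 (SE 0.31, adjusted p = 0.644), and 0.67 without KO CD library 1 (SE 0.19, adjusted p = 0.136).

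Aldh1a1, the gene of a retinaldehyde dehydrogenase, was by far the most abundant of the 10 (ENSMUSG00000053279.7, chromosome 19, 20492715 to 20643465). It was at 1191 and 1289 TPM in WT CD, at 2169.8, 1132 and 937 TPM in KO CD and at 1865 and 1732 TPM in KO VOFD. KO CD library 1 was highest of all and the others of its group lowest, and both KO VOFD libraries were above both WT CD ones. The log2 fold change was 0.09 in KO CD against WT CD (SE 0.31, adjusted p = 0.905), where it turned to -0.13 with median-of-ratios scaling, and 0.44 in KO VOFD against KO CD (SE 0.31, adjusted p = 0.722). Without KO CD library 1 the latter was 0.80 (SE 0.15, adjusted p = 0.0610).

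Tcf21, the gene of a transcription factor of stromal progenitor cells (ENSMUSG00000045680.8, chromosome 10, 22817281 to 22820174), varied least between groups. It was at 92.2 and 80.3 TPM in WT CD, at 100.5, 93.5 and 67.3 TPM in KO CD and at 84.6 and 72.5 TPM in KO VOFD, and all groups overlapped. Its log2 fold change in KO CD against WT CD was -0.0044 (95% interval -0.48 to 0.47).

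Pdgfra, the gene of a platelet-derived growth factor receptor of mesenchymal cells (ENSMUSG00000029231.15, chromosome 5, 75152292 to 75198215), was at 27.5 and 30.9 TPM in WT CD, at 50.1, 24.6 and 50.5 TPM in KO CD and at 37.8 and 27.9 TPM in KO VOFD. KO CD libraries 1 and 3 were above all others and KO CD library 2 below all others. For KO CD against WT CD the log2 fold change was 0.43 (SE 0.32, adjusted p = 0.582). Of 10 stromal fibroblast markers, 7 were highest in KO CD library 1, beside 14.3% of all genes tested. The sum of the 10 was 1726, 1209 and 1366 TPM in KO CD against 1059.9 to 1259 TPM in the fertile libraries. The markers differed among themselves. In KO CD library 1, Ogn, at 236 TPM, lay below the fertile 256 to 344 TPM, and Dcn lay within the fertile range. In KO CD library 2, Col1a1, Col1a2, Col3a1, Mfap5, Dpt and Pi16 lay below all fertile libraries. Dcn and Lum lay above them there, and Mfap4 and Ogn within their range. Of 8 adipose markers, 5 were highest in KO CD library 1, beside the same 14.3%. Pparg was lowest there, at 21.5 TPM against 27.6 to 42.1 TPM in the fertile libraries. Lep, at 4.43 TPM there, lay within the fertile range of 1.13 to 10.8 TPM, and Cfd was highest in KO CD library 2. The sum of the 8 was 2842, 1949 and 1198 TPM in KO CD and 252 to 1167 TPM in the fertile libraries. The part of fat or stroma in the Pdgfra value was not tested.

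Of 16 other retinoic acid genes 14 were tested and 0 passed in KO CD against WT CD by limma, with 1 at an unadjusted p under 0.05 beside 10.3% of all genes, Stra6, a retinol transporter gene, at 16.2 ± 9.28 TPM in KO CD against 6.96 ± 3.63 TPM in WT CD (adjusted p = 0.477). Their median was 0.17 beside 0.19 over all genes, and 0.31 beside 0.24 without KO CD library 1. All 5 other PDGF genes were tested and 0 passed with all libraries, with 1 at an unadjusted p under 0.05 in KO CD against WT CD. That gene was Pdgfa, which encodes a ligand of PDGFRA, at 35.3, 23.4 and 28.9 TPM in KO CD, 52.3 and 48.0 TPM in WT CD and 38.1 and 35.8 TPM in KO VOFD (log2 fold change -0.78, SE 0.20, adjusted p = 0.289). Each KO CD library was below each fertile one. The median of the 5 in KO CD against WT CD was -0.26 beside 0.19 over all genes, and -0.0488 beside 0.24 without KO CD library 1. Without that library Pdgfd passed, higher in KO VOFD against KO CD and lower in infertile against fertile libraries. In these fits 0.678% and 4.34% of all genes passed. Of the 9 other interstitial transcription factor genes 1 passed, in infertile against fertile libraries, beside 0.245% of all genes. That gene, Lhx9, a gonadal LIM homeobox gene, was at 18.0, 18.4 and 18.5 TPM in KO CD, 31.9 and 34.7 TPM in WT CD and 35.2 and 38.6 TPM in KO VOFD. It fell in infertile against fertile libraries (log2 fold change -0.90, SE 0.13, adjusted p = 0.0291), and adjusted p ran from 0.0114 to 0.124 over 12 alternative fits, of which 7 lost the call. It missed the threshold in KO CD against WT CD (-0.83, adjusted p = 0.173).

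Among themselves the 10 genes fell into no common order over the 7 libraries. On the log2(TPM + 1) scale Ptch1 and Gli1 were the most alike (Pearson's r = 0.97, Spearman's rho = 0.75, n = 7 libraries), with r = 0.84 without KO CD library 3. Hhip and Enpep had r = 0.93 (rho = 0.71), and 0.85 without KO CD library 3. Cyp17a1 and Insl3 had r = 0.43 (rho = -0.14), and -0.32 without KO CD library 1. These values describe libraries that share groups and a common scale, and no test was made of them.

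Genes outside the list were ranked by the same measure among 10778 named protein coding genes that averaged 5 TPM or more. Those most like Cyp17a1 were Bach2 (r = 0.98), Manf (0.98) and Cox7a2l (0.98), followed by the oocyte genes Ooep and Oosp1 (0.97 each). Without KO CD library 1 the r of these 5 genes lay between 0.33 and 0.76, so the likeness rested on that library. Those most like Insl3 were Tiam2 (0.97) and Arhgap20 (0.97), which kept 0.96 and 0.97 without KO CD library 1. Those most like Hhip were Snrnp40, a spliceosome component gene (0.996), and Nt5c2 (0.99), with 0.99 and 0.98 without KO CD library 3. Gli1 was nearest to Tsn (0.999), Ptch1 to Mrpl44 (0.998) and Nr2f2 to Cc2d2a (0.997). With 7 libraries and 10778 genes ranked, values this high describe the order of the list.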

How the data were processed

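RNA of mouse ovaries was measured in 7 libraries, grouped by their titles. Values were deposited by the authors as TPM for 34866 genes, and each column sums to 1000000, so depth is unknown and no counting interval was computed. Per the submitters' processing notes, reads were placed on GRCm38. The aligner, the counter and the use of strand were not given in the sources used, so reads of a gene and of an antisense or overlapping partner cannot be told apart. Symbols matched 34582 gene IDs, and coordinates are from GENCODE M21, an annotation of GRCm38.

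Genes with at least 1 TPM in at least 2 libraries were kept. On log2(TPM + 1), limma 3.58.1 (R 4.3.3) with an intensity trend gave 2-sided tests from linear models over all 7 libraries with 3 group means (or 2, infertile and fertile, for the pooled comparison), with Benjamini-Hochberg adjustment over 15487 genes and a threshold of 0.05. Fold changes on this scale understate low genes such as Hhip. The models were tested on simulated data. Alternatives were a pseudocount of 0.1, no filter, median-of-ratios and quantile scaling, the compared groups alone, the replicate number as a block, and leaving out each library.

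All 10 genes are named. Of the other listed genes those with the smallest p, the hedgehog ligands and transducers and the steroid chain are named. The genes and lists were chosen with earlier results of these data known. Gaps of a library to the others were added after seeing the data. Correlations are descriptions.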

Additional observations from a re-analysis of the deposited data

How the results depend on the processing

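Over 510 alternative fold changes of the 10 genes, 1 passed the threshold, that of Hhip in infertile against fertile libraries without KO CD library 1, and 28 changed sign. The number of the 10 genes past the threshold was 0 under every alternative in the pairwise comparisons and 0 to 1 over the libraries left out in infertile against fertile. For all genes, leaving out 1 library gave 4 to 174 calls in KO CD against WT CD (17 with all), 3 to 104 in KO VOFD against KO CD (7), 2 to 14 in KO VOFD against WT CD (2) and 15 to 665 in infertile against fertile (38), and the highest of these came without KO CD library 1 except for the 14, which came without KO CD library 3. With no filter the counts were 3 in KO CD against WT CD, 5 in KO VOFD against WT CD and 4 in infertile against fertile. A pseudocount of 0.1 gave 4 in KO VOFD against KO CD and 7 in KO VOFD against WT CD. The compared groups alone gave 4 and 29 there. Infertile against fertile gave 64 with median-of-ratios and 59 with quantile scaling. The replicate block gave 27 calls in KO CD against WT CD, 12 in KO VOFD against WT CD and 15 in infertile against fertile. Same-numbered libraries had correlations of their deviations from group means between -0.19 and 0.05. In a group of 2 libraries these deviations mirror each other, so the correlations cannot decide whether the samples were paired. The main fits did not pair them. Number 3 occurs in KO CD alone, so the block leaves KO CD library 3 out of every fold change.

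The fold changes that changed sign passed no threshold. With the replicate block the log2 fold change was 0.0707 for Aldh1a1 and -0.0785 for Insl3 (infertile against fertile), 0.17 for Tcf21 and -0.10 for Ihh (KO CD against WT CD), and 0.0445 for Enpep, 0.16 for Gli1 and 0.0504 for Ptch1 (KO VOFD against KO CD). With median-of-ratios scaling it was -0.13 for Aldh1a1 (KO CD against WT CD), -0.0465 for Cyp17a1 and -0.0065 for Nr2f2 (KO VOFD against WT CD), and -0.0017 for Insl3 and -0.10 for Tcf21 (infertile against fertile), and with quantile scaling the last 2 were -0.0232 and -0.0656. Over the libraries left out, values ran in KO CD against WT CD from -0.27 to 0.34 for Aldh1a1, from -0.12 to 0.17 for Tcf21 and from -0.10 to 1.29 for Ihh. In KO VOFD against KO CD they ran from -0.52 to 0.0445 for Enpep, from -0.33 to 0.16 for Gli1 and from -0.47 to 0.0504 for Ptch1. In KO VOFD against WT CD they ran from -0.19 to 0.30 for Cyp17a1, from -0.11 to 0.30 for Nr2f2, from -0.0598 to 0.37 for Pdgfra and from -0.0053 to 0.52 for Ptch1. In infertile against fertile they ran from -0.53 to 0.0707 for Aldh1a1, from -0.0905 to 0.55 for Insl3 and from -0.0498 to 0.24 for Tcf21. The cause was not tested. TPM keeps no depth, so the precision of low genes such as Hhip is unknown.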

Other observations

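A few genes had a value in 1 library that stood apart. Cyp26a1, which encodes an enzyme that breaks down retinoic acid, was at 10.1 TPM in KO CD library 3 and between 0.234 and 0.889 TPM in the other 6 libraries. Apln, the gene of the peptide apelin, was at 33.0 TPM in KO CD library 1 and between 2.28 and 5.24 TPM in the others. Both were chosen after their values were seen.

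Pdgfd, the gene of a second class of platelet-derived growth factor ligand, was at 31.3, 13.2 and 14.9 TPM in KO CD, 26.3 and 25.5 TPM in WT CD and 34.0 and 31.4 TPM in KO VOFD. KO CD library 1 lay with the fertile libraries, as it did for Insl3 beside WT CD.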
